A study of Mus musculus with 18 samples.

Results

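Rprl2 is a mouse gene for a short non-coding RNA that resembles the RNA subunit of ribonuclease P. The deposited small RNA table lists 5 cytosines under its name (identifier ENSMUSG00000087775), out of 192 listed small RNA sites and out of 39 such sites that lie outside tRNAs and the tRNA-like tRX genes. The sites were chosen by name (all rows named Rprl2), and the gene itself was selected on its listed levels and coverage, which were already known. Testes of adult mice of 2 genotypes were compared, WT and Nsun7 knockout, with 3 small RNA libraries per genotype. The labels give neither strain nor the way the knockout was made. They also do not state whether separate animals gave the 3 libraries of a genotype, and the p-values below rest on the spread between libraries alone, which may be technical. No listed mRNA or small RNA site lies in Nsun7 (0 rows), so the knockout itself could not be checked in these tables. Total coverage, summed over the listed small RNA sites, was 4674265 to 5096438 reads per library, of which 10735 to 17262 fell at sites outside tRNAs and tRX genes.

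Ribonuclease P removes the 5′ leader from precursor tRNAs, and in the nucleus its catalytic part is an RNA, encoded in the mouse by Rpph1. Rprl2 belongs to a small group of genes that encode shorter homologues of that RNA. 5-Methylcytosine (m5C) in RNA is set mainly by enzymes of the NOL1/NOP2/Sun family, of which NSUN7 is a member expressed in testis, and by DNMT2. Bisulfite treatment converts unmethylated cytosine to uracil, and the m5C level of a position is the share of its reads that keep C. An unmethylated cytosine that escaped conversion counts in the same way, and how complete the conversion was cannot be read from these tables. A read from a related gene that was placed on Rprl2 and shows C would count as well, which was not tested.

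The 5 sites lie within 82 nucleotides of chromosome 3 (GRCm39), at positions 22305633, 22305664, 22305671, 22305698 and 22305715. The distances between neighbours are 31, 7, 27 and 17 nucleotides. Each of the 192 rows of the small RNA table has a plus sign, in a column that is not named as strand, so it does not show which end of this stretch is 5′, and the sites are given here in the order of the coordinate. RefSeq types Rprl2 as an RNase P RNA. The bases around the sites were not analysed here, since no genome of this build was used.

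The m5C profile had 1 high site and 4 low ones. At position 22305698 the WT libraries 1 to 3 stood at 50%, 59.1% and 51.4% and the knockout libraries 1 to 3 at 36.5%, 56.6% and 51.7%. About every other read thus showed C there, and in each of the 6 libraries this site was the highest of the 5, by 18.6 points at the least (knockout replicate 1) and 48.4 points at the most (WT replicate 2). At position 22305715, which is 17 nucleotides on, WT stood at 4.82%, 5.71% and 7.34% and the knockout at 5.81%, 5.24% and 7.48%. This was the lowest of the listed sites outside tRNAs and tRX genes, ranked 1 of 39 by the mean over 6 libraries.

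The 3 remaining sites stood near 10%. Position 22305633 had 8.16%, 9.84% and 9.23% in WT and 8.75%, 7.63% and 9.59% in the knockout. Position 22305671 had 9.09%, 10.7% and 9.35% in WT and 9.94%, 9.17% and 12.1% in the knockout. In both cases the genotypes' values were interleaved. Position 22305664 had 10.6%, 10.2% and 8.67% in WT and 17.9%, 9.29% and 7.01% in the knockout. Here knockout replicate 1 stood above the 5 other libraries, with 33 of 184 reads showing C and an exact 95% binomial (Clopper-Pearson) interval of 12.7% to 24.3%. The neighbouring site at 22305671 had 17 of 171 reads in the same library, which was within the range of the others. Among all 24 values of the 4 low sites, none was above 20% (0 of 24). Such intervals cover counting error only, since several reads can come from 1 molecule and no molecular identifiers are given.

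**Figure D1:**
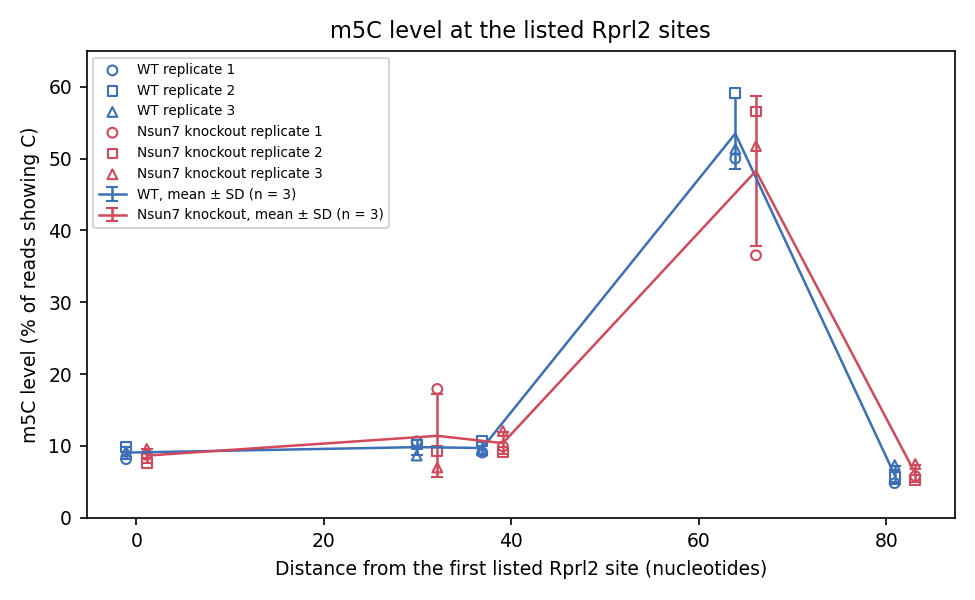
m5C level (percent of reads showing C) at the 5 listed Rprl2 sites against the distance in nucleotides from the first of them, for 3 WT and 3 Nsun7 knockout libraries (open symbols) with the mean ± SD of each genotype (lines and bars, n = 3), the genotypes set slightly apart for display. The site at 65 nucleotides stands at 36.5% to 59.1% in every library, and the other 4 sites stay at or below 17.9%.

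The comparison of genotypes asks whether methylation of Rprl2 depends on Nsun7. At the high site, 22305698, WT averaged 53.5% ± 4.91 and the knockout 48.3% ± 10.4 (mean ± SD, n = 3), and the knockout minus WT difference was -5.21 points. The 9 differences between a knockout and a WT library ranged from -22.6 to 6.56 points. Coverage at this site was only 20 to 122 reads, and the 95% limma interval of the difference ran from -20.9 to 10.5 points, so a loss of the whole level lies outside it and a moderate change in either direction lies within it. Without knockout replicate 1 the difference was 0.660 points.

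At the 4 low sites the means of the genotypes lay within 2 points of each other. They were 9.08% ± 0.847 in WT and 8.66% ± 0.981 in the knockout at 22305633, and 9.84% ± 1.04 and 11.4% ± 5.76 at 22305664 (mean ± SD, n = 3). They were 9.72% ± 0.872 and 10.4% ± 1.51 at 22305671, and 5.96% ± 1.27 and 6.17% ± 1.17 at 22305715 (mean ± SD, n = 3). The largest of these differences, 1.57 points at 22305664, became -1.69 points without knockout replicate 1. The 95% limma interval was narrowest at 22305633, from -2.40 to 1.56 points, and widest among the low sites at 22305664, from -6.42 to 9.57 points.

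A quasi-binomial model of the C reads, fitted over the whole small RNA table with Benjamini-Hochberg adjustment, called 0 of the 5 Rprl2 sites, as it called 0% of the 184 sites it tested (7 of them at an unadjusted p under 0.05). The adjusted p of the Rprl2 sites was 0.913 to 0.956, the unadjusted p 0.430 to 0.754, and 0 of the 5 were under 0.05 unadjusted. limma on the levels gave adjusted p of 0.932 to 0.964 and also called 0. Fisher's exact test on reads pooled per genotype, which leaves out the spread between libraries, called 12.5% of the 192 sites and 0 of the 5 in Rprl2. The libraries of the genotypes overlapped at every Rprl2 site, against a share of 11.5% of all 192 small RNA sites at which they did not. The unweighted mean over the 5 sites was 16.5%, 19.1% and 17.2% in WT and 15.8%, 17.6% and 17.6% in the knockout. That is 17.6% ± 1.34 and 17.0% ± 1.03 (mean ± SD, n = 3). The genotypes thus differed by -0.631 points, and single knockout and WT libraries by -3.32 to 1.04. Summing the reads over the sites, which weights each site by its coverage, turned it to 0.646 points.

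Coverage along the stretch was uneven, and it changed most between the sites of highest and lowest level. Position 22305715 had the most reads in every library, 228, 490 and 477 in WT and 534, 1260 and 508 in the knockout. Position 22305698 had the fewest in every library, 20, 44 and 37 in WT and 52, 122 and 58 in the knockout. Over the 17 nucleotides between them coverage thus differed 11.4-, 11.1- and 12.9-fold in WT and 10.3-, 10.3- and 8.76-fold in the knockout. Of the reads that showed C there were 10, 26 and 19 in WT and 19, 69 and 30 in the knockout at 22305698, and 11, 28 and 35 in WT and 31, 66 and 38 in the knockout at 22305715. The number of C reads was therefore of the same order at both sites, with ratios of 0.543 to 1.05, and the levels differed mainly because the number of reads without C did. Whether the same molecules were read at both sites was not tested, since the table holds no reads.

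The 3 upstream sites by coordinate were intermediate in depth, with 49 to 131 reads at 22305633, 94 to 226 at 22305664 and 84 to 218 at 22305671. Their depth relative to 22305715 went with the replicate number in both genotypes. At 22305664 it was 41.2%, 20% and 31.4% in WT replicates 1 to 3 and 34.5%, 17.9% and 30.9% in knockout replicates 1 to 3. At 22305671 it was 38.6%, 17.1% and 29.1% in WT and 32.0%, 17.3% and 29.3% in the knockout. Replicate 2 was thus the lowest of its genotype at these sites and replicate 1 the highest. The depth of 22305698 relative to 22305715 was 8.77%, 8.98% and 7.76% in WT and 9.74%, 9.68% and 11.4% in the knockout, where the genotypes did not overlap. That ratio is 1 of 4 such ratios, was singled out after its values had been seen, and was not tested.

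**Figure D2:**
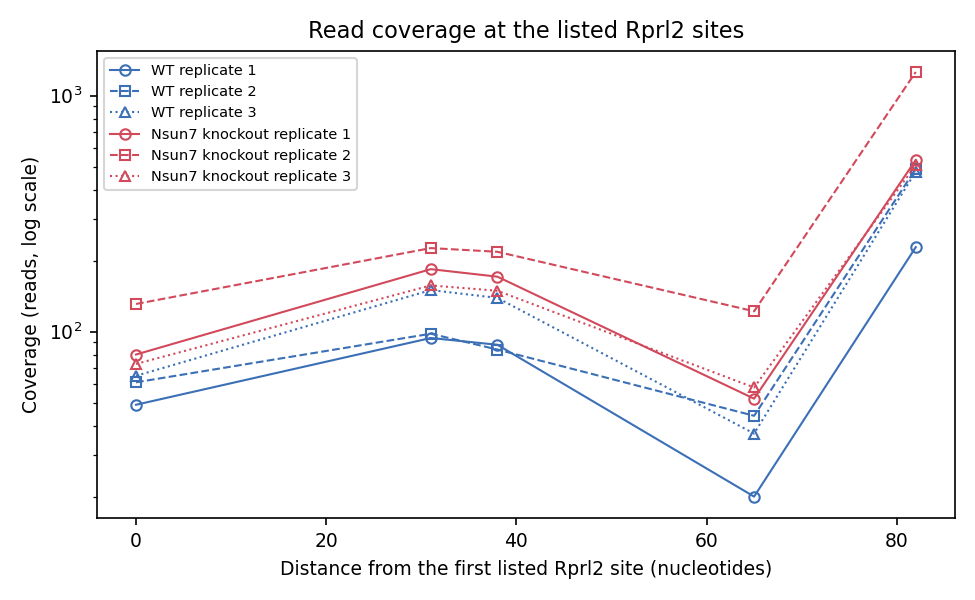
Read coverage (log scale) at the 5 listed Rprl2 sites against the distance in nucleotides from the first of them, 1 line per library. All 6 lines dip to 20 to 122 reads at 65 nucleotides and reach 228 to 1260 reads at 82 nucleotides.

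Rprl2 had more coverage in each knockout library than in any WT library, but its share among the RNAs outside tRNAs overlapped between genotypes. Summed over the 5 sites, where a read counts once at each site it covers, coverage was 479, 777 and 868 in WT and 1021, 1957 and 945 in the knockout. Knockout replicate 2 stood far above the rest, and knockout replicate 3 exceeded WT replicate 3 by 77. The ratio of knockout to WT means was 1.85. Coverage at each of the 5 sites separately was higher in all 3 knockout libraries than in all 3 WT libraries, with ratios of 1.62 (22305633) to 2.30 (22305698). The sites can share reads, so these are not taken as separate observations. Of the 34 RNAs outside tRNAs and tRX genes, 11.8% had deposited coverage that was higher in the knockout without overlap and 5.88% coverage that was lower without overlap. The rule for this gene names its coverage by genotype, so these values are a description and carry no test. In whole testis, a change in the number of cells of a type and in the RNA per cell cannot be told apart, and coverage at listed sites is not a measure of a gene's full expression. Rprl1, Rprl3 and Rpph1 are related in sequence, and the sources used here do not say how reads shared between such genes were assigned. The coverage and the m5C levels of Rprl2 are uncertain to that extent.

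As a percent of all coverage outside tRNAs and tRX genes, Rprl2 stood at 4.46%, 5.96% and 7.31% in WT and, in the knockout, at 7.02%, 11.3% and 5.80%. Its mean share was 5.91% ± 1.43 and 8.05% ± 2.91 (mean ± SD, n = 3), a ratio of 1.36. Knockout replicate 3 lay below both WT replicates 2 and 3, and without knockout replicate 2 the ratio was 1.08. Within same-numbered libraries the knockout share was 1.57 and 1.90 times the WT share in pairs 1 and 2, and 0.793 times in pair 3. By this measure 0% of the 34 RNAs were higher in the knockout without overlap. The mean share was lower in the knockout for 29 of the 34 and higher for 5, Rprl2 among them. Many of the 29 were lower without overlap.

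The denominator matters here because a single transcript, Gm37350, held 79.3% to 86.0% of the coverage outside tRNAs. Its own coverage was 8612, 10617 and 9499 in WT and 11927, 13692 and 14027 in the knockout, higher in the knockout without overlap. As a percent of the coverage at all 192 small RNA sites, Rprl2 stood at 0.00951%, 0.0155% and 0.0186% in WT and, in the knockout, at 0.0200%, 0.0419% and 0.0198%. On that scale the means were 0.0145% ± 0.00461 and 0.0272% ± 0.0127 (mean ± SD, n = 3), with a ratio of 1.88. The knockout was higher without overlap, as for 11.8% of the 34 RNAs, and some other RNAs were lower without overlap. The nearest libraries of the 2 genotypes were 0.00127 percentage points apart, and without knockout replicate 2 the ratio was 1.37. The ratios within same-numbered libraries were 2.11, 2.71 and 1.07 on this scale, and 2.13, 2.52 and 1.09 for the deposited coverage. On both scales Rprl2 ranked 1 of the 34 RNAs by this ratio, where the median RNA had 0.687 by share outside tRNAs and 0.938 by share of all sites. Without knockout replicate 2, and also without WT replicate 2, Rprl2 ranked 3 on both scales and Ebf2, a transcription factor gene with 7 to 22 reads, ranked highest. The median coverage of the 39 sites was 32 reads, so the ratios of many of these RNAs are imprecise.

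**Figure D3:**
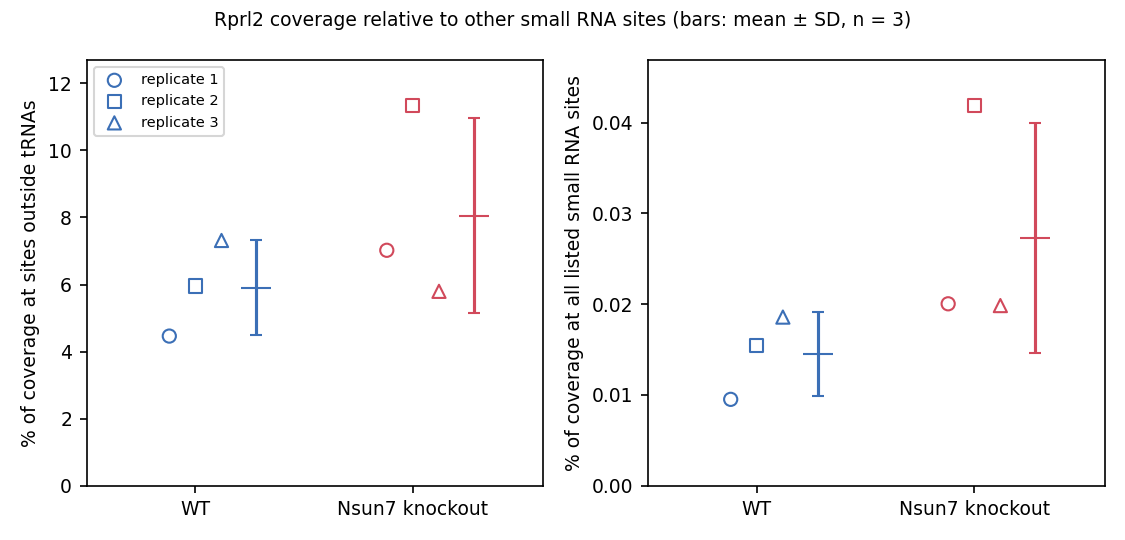
Rprl2 coverage in each library (open symbols by replicate number, with mean ± SD, n = 3, as bars) as a percent of coverage at sites outside tRNAs and tRX genes (left) and as a percent of coverage at all listed small RNA sites (right). On the left the genotypes overlap, at 4.46% to 7.31% in WT and 5.80% to 11.3% in the knockout, and on the right they do not.

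Among the RNAs outside tRNAs, Rprl2 had the most listed sites, and most of them were low. No other RNA in the small RNA table had more than 4 listed sites, and 32 of the 34 RNAs outside tRNAs and tRX genes had 1. The median level of the 39 sites was 78.9%, and 4 of the 6 sites under 15% were in Rprl2. The other 2 were in Gm54944 and Jak3, and 25 of the 39 sites stood above the highest Rprl2 site. Just above 15% stood sites of Git1 (15.2%), Snord118 (15.7%) and Gm37350 (16.9%), so low levels were not particular to Rprl2. The sites nearest in level just above and just below 22305698 (50.9% over 6 libraries) were in Myo3a at 53.2% and in Lrig1 at 41.0%. These ranks describe the listed sites and were not tested.

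The RNAs whose mean levels in the 6 libraries lay nearest to those of Rprl2 were Snord118, Git1 and Jak3, at Euclidean distances of 7.24, 10.1 and 12.9 points over 6 libraries. Snord118, which encodes the U8 small nucleolar RNA used in ribosomal RNA processing, had a single listed site with 16.0% ± 1.96 in WT against 15.4% ± 3.02 in the knockout (mean ± SD, n = 3). Git1, which encodes a GTPase-activating scaffold protein, had 15.8% ± 6.38 and 14.7% ± 3.14, and the Janus kinase gene Jak3 had 15.0% ± 0.337 and 10.3% ± 2.67 (mean ± SD, n = 3). The likeness is of means only. For Rprl2 the mean of 17.3% joins 4 low sites and a high one, and no Rprl2 site had that level as its own mean, while the 3 others have 1 site each.

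Gm37350 was the only other RNA outside tRNAs with more than 1 listed site, and it showed the same arrangement of depth and level. Its site at 5925769 on chromosome 3 had 8530 to 13908 reads and levels of 15.5% to 18.8%, and its site at 5925524 had 65 to 119 reads and levels of 94.5% to 98.5%. In Rprl2 too the deepest site was the lowest in level and the shallowest the highest. The levels of Gm37350 differed by 79.5 points between its sites and those of Rprl2 by 44.8 points, ranks 1 and 7 among the 44 RNAs with at least 2 listed sites, whose median was 13.7 points. Of those 44 RNAs, 18 (40.9%) had their deepest site lowest and their shallowest site highest, 16 of them among the 42 tRNAs and tRX genes. In an RNA with 2 sites, such as Gm37350, these are 1 condition and not 2. Depth differed 134-fold between the sites of Gm37350 and 10.5-fold in Rprl2. It differed 200-fold in tRNA-Leu-CAA-2-1 and 521-fold in tRNA-Leu-CAA-4-1, and neither of these tRNAs showed the arrangement. In the other tRNAs and tRX genes depth differed at most 1.77-fold. Across the 39 sites outside tRNAs, mean level and median coverage had a Spearman correlation of -0.554, and of -0.428 over the 34 sites without Rprl2. Sites of 1 RNA can share reads and all sites share the libraries, so this is a description without a p. How sites came to be listed is not stated in the sources used here, and whether the listing itself ties level to depth was not tested.

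**Figure D4:**
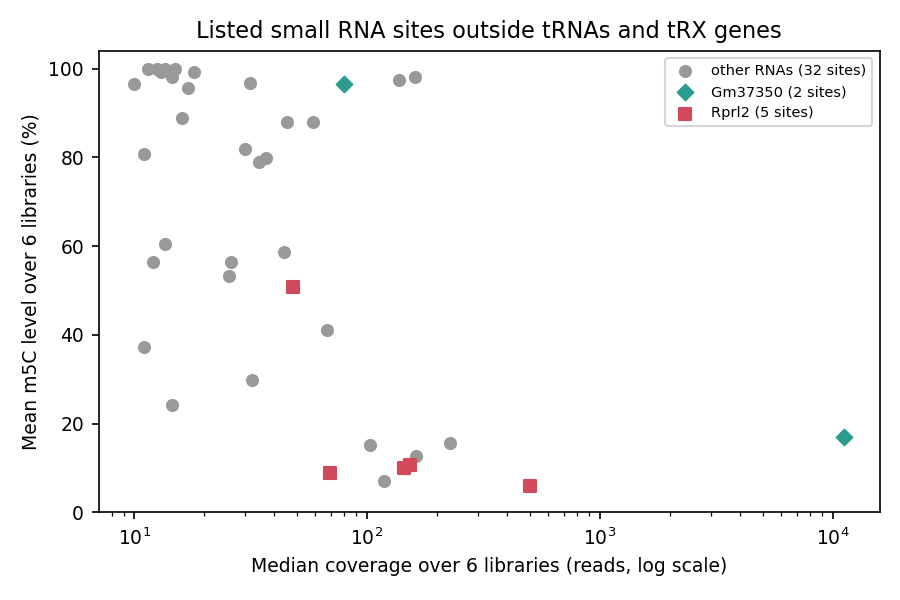
Mean m5C level over 6 libraries (%) against median coverage over 6 libraries (reads, log scale) for the 39 listed small RNA sites outside tRNAs and tRX genes, with Rprl2 and Gm37350 marked. At 50.9% the shallowest Rprl2 site stands well above the other 4, which lie among the lowest levels of the plot.

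Other genes of the ribonuclease P pathway were looked up among the listed sites. Only 192 small RNA sites and 251 mRNA sites were listed in all, so most genes of any kind had none. The share of all genes with a listed site was not computed, so the counts that follow are not a result about ribonuclease P. Of the 4 related RNA genes Rpph1, Rmrp, Rprl1 and Rprl3, 0 had a listed site, and so did 0 of 9 other short structured RNA genes such as Rn7sk, Rny1 and Vaultrc5. Of 14 genes for protein components of the nuclear and mitochondrial enzymes, 1 had a site, Rpp30, a protein subunit that binds the RNA of ribonuclease P. Its site in mRNA (ENSMUSG00000024800, chromosome 19, position 36077649) had 14.3%, 10.9% and 11.8% in WT libraries and 16.4%, 19.6% and 14.1% in knockout libraries, at 46 to 68 reads. The means were 12.3% ± 1.77 and 16.7% ± 2.79 (mean ± SD, n = 3), with knockout replicate 3 just below WT replicate 1. The quasi-binomial model over the mRNA table gave an unadjusted p of 0.0897 and a Benjamini-Hochberg adjusted p of 0.643, and called 0% of the 251 mRNA sites (20 at an unadjusted p under 0.05).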

How the data were processed

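m5C was read from bisulfite-converted testis RNA, and the small RNA table (6 libraries) and the mRNA table were used. Coverage and C reads are deposited counts without normalization, per the file headers. The deposited level is a fraction, equal to C reads over coverage to within 0.005 and rounded by the authors. Cutadapt, Trimmomatic, HISAT2, Bowtie2, SAMtools and GRCm39 stand in the submitters' processing notes, with roles not given in the sources used here, nor how sites were chosen or how reads from related gene copies were assigned. Levels were recomputed as percentages from the counts. The number of unmapped per-sample columns was 0.

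Each site was tested with a two-sided quasi-binomial model with its own dispersion (libraries of at least 10 reads, at least 2 per genotype, Benjamini-Hochberg over the table, threshold 0.05). The model was checked on simulated data with a large loss at some sites, which does not show its power for smaller changes. Libraries fitted at 0% or 100% were not counted in the residual degrees of freedom. Alternatives used limma 3.58.1, TMM factors from edgeR 4.0.16, median-of-ratios factors and Fisher's exact test (R 4.3.3, Python 3.11.15). Precision at Rprl2 rests on 20 to 1260 reads per site and library.

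The gene, the lists and the tests were chosen with earlier results of these data known. The genes named are the Rprl2 sites, the listed RNase P genes and short structured RNAs, RNAs outside tRNAs with at least 2 sites, the 3 with the most coverage (Gm37350, Rprl2 and Snord118), and the 3 nearest in level. Gm54944, Myo3a, Lrig1 and Ebf2 were named after their values had been seen. Same-numbered libraries' level residuals, standardised by site, correlated at 0.0653, 0.0976 and 0.0357, so levels were not taken as paired. Their log2 coverage deviations correlated at 0.412, 0.230 and 0.124 over all 192 sites, above the limit of 0.1, with -0.377 to 0.239 between differently numbered libraries. Over the 39 sites outside tRNAs and tRX genes they correlated at 0.277, 0.00907 and -0.282, so coverage was not taken as paired there and pair ratios are descriptions. On the scale of all sites, where the limit was passed, the ratio of 1.88 was taken from unpaired means. The Rprl2 ratios within same-numbered libraries on that scale were 2.11, 2.71 and 1.07.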

Additional observations from a re-analysis of the deposited data

How the results depend on the processing

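The number of Rprl2 sites called stayed at 0 under all 13 alternatives. Fisher's test on pooled reads was the only alternative to call any of the small RNA sites (24 of 192). Over the alternatives the adjusted p of single sites was 0.800 to 1. The quasi-binomial model with the replicate number as a block called 0 Rprl2 sites, like the model without it. Of 65 site differences under an alternative, 56 kept their direction, 7 turned and 2 were 0, both with limma on the deposited rounded levels. Fisher's test on pooled reads turned 22305715 to -0.328 points. With 1 library left out the differences ranged from -0.885 to 0.0928 points at 22305633, -1.69 to 3.78 at 22305664, -0.161 to 1.29 at 22305671, -9.35 to 0.660 at 22305698 and -0.437 to 0.905 at 22305715. The mean difference of -0.631 points was 0.646 from summed reads and -1.17 to 0.117 with 1 library left out, and it was again -0.631 within same-numbered pairs, as their mean must be. The span of levels, taken on means or pooled reads over libraries, stayed at 42.1 to 47.6 points under every alternative run. In single libraries it varied more, from 30.7 points (knockout replicate 1) to 53.4 points (WT replicate 2). The knockout to WT ratio of the Rprl2 share, 1.36, was 1.88 against all small RNA sites, 1.91 without Gm37350 and Rprl2 in the denominator, 1.91 with median-of-ratios factors and 1.98 with TMM. With 1 library left out it was 1.08 to 1.55, and against all small RNA sites, an alternative chosen after seeing the data, it was 1.37 (without knockout replicate 2) to 2.18 (without WT replicate 3), with 1.94 without WT replicate 2, 2.13 without knockout replicate 1 and 2.13 without knockout replicate 3. The mean ratio within same-numbered pairs (replicate block) was 1.42. The Rpp30 difference of 4.37 points was 2.91 to 5.68 with 1 library left out and passed the threshold under none of the 13 alternatives, also chosen after seeing the data. Depth limits the high site most, where WT replicate 1 had 20 reads and an interval of 27.2% to 72.8%.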
